A study of Mus musculus with 103 samples.

Results

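The 9 genes described here make the starting materials of fatty acids in the cytosol and join them into chains: Slc25a1, Acly and Acss2 bring and make acetyl-CoA, Acaca and Fasn build the chain, and G6pdx, Pgd, Me1 and Idh1 make NADPH. They were chosen by gene symbol and role, by a rule with no threshold on measured values but with earlier results of these data known, and each is represented by its transcript of highest mean level. All 9 were found among the 24014 symbols of the deposited RNA table. Of these symbols, 10605 reached 1 RPKM in at least 2 of 6 libraries, and this filter was passed by 8 of the 9 genes, Acaca being the exception. RPKM scales reads to transcript length and library size, so levels of different genes can be compared on it. SREBP1 and LXR binding was taken from peaks within 10 kb of their start sites: 11 of 13984 SREBP1 peaks and 21 of 40660 LXR peaks.

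The cells were macrophages washed from the peritoneum of male C57BL/6 mice, aged 6 to 8 weeks, 3 to 4 days after thioglycollate, an irritant broth that draws macrophages into the cavity. They were kept overnight in 0.5% serum before treatment, and this holds for treated and untreated cells alike. KLA (Kdo2-Lipid A), a pure form of the membrane anchor of bacterial endotoxin that acts on the receptor TLR4, was given at 100 ng/ml for 1, 6, 12 or 24 h. Each of these times has 1 poly(A) RNA library, as do the untreated cells that serve as control for 1 to 12 h and the separate untreated cells for 24 h. SREBP1 and LXR chromatin came from macrophages given GW3965, a drug-like activator of LXR (liver X receptors, which sense oxysterols), at 1 µM and without KLA by their titles. The RNA and the peaks were thus measured in differently treated cells. No library has a replicate, so no p-value is given, and the number of mice behind a library is not given in the labels.

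Fatty acid synthesis starts from citrate, which leaves the mitochondrion through the carrier encoded by Slc25a1 and is split in the cytosol to acetyl-CoA by ATP citrate lyase. Acetyl-CoA carboxylase turns acetyl-CoA into malonyl-CoA, and fatty acid synthase extends the chain with malonyl-CoA and NADPH. NADPH comes from the oxidative pentose phosphate pathway, from malic enzyme and from isocitrate dehydrogenase, and macrophages also spend it on the oxidative burst and on keeping glutathione reduced. Many genes of these steps are known targets of SREBP1, the transcription factor made from Srebf1, and Srebf1 and Fasn are known targets of LXR.

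The libraries held 2205189 to 2674827 reads each, and 9266 to 10172 genes reached 1 RPKM. Reads were recovered from the RPKM values, and each ratio below has a 95% exact interval that covers counting error only. Relative to the control, the middle gene of all those tested had a log2 ratio of −0.16 after 1 h, −0.46 after 6 h, −0.32 after 12 h and −0.09 after 24 h. Rescaling by the trimmed mean of M values (TMM) moved every log2 ratio up by 0.19, 0.55, 0.40 and 0.13 at these times. All 8 macrophage markers in the table were expressed, with Lyz2 at 3936 to 8848 RPKM and Cd68 at 1530 to 2043 RPKM. The 6 adipocyte markers, which would mark fat tissue carried over with the lavage, and the 5 erythroid markers were listed at 0 in every library.

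In untreated cells 3 of the 4 genes of NADPH supply were the most abundant of the 9, and Me1 was among the lowest. In the untreated 1 to 12 h library Pgd stood at 262 RPKM, Idh1 at 156 and G6pdx at 77.3. The acetyl-CoA genes Slc25a1 and Acly stood at 41.1 and 39.6 RPKM there. Fasn, Acss2, Me1 and Acaca were low, at 4.24, 2.08, 1.39 and 0.552 RPKM. Summed by role, the genes that build the chain were therefore far less abundant in RNA than those that supply it. Acaca and Fasn together summed to 4.80 RPKM, against 82.8 RPKM for the acetyl-CoA genes and 497 RPKM for the NADPH genes. Gene by gene this did not hold, since the supply genes Acss2 and Me1 were below Fasn. The plot of levels by library shows the 9 genes on their own scales.

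**Figure D1:**
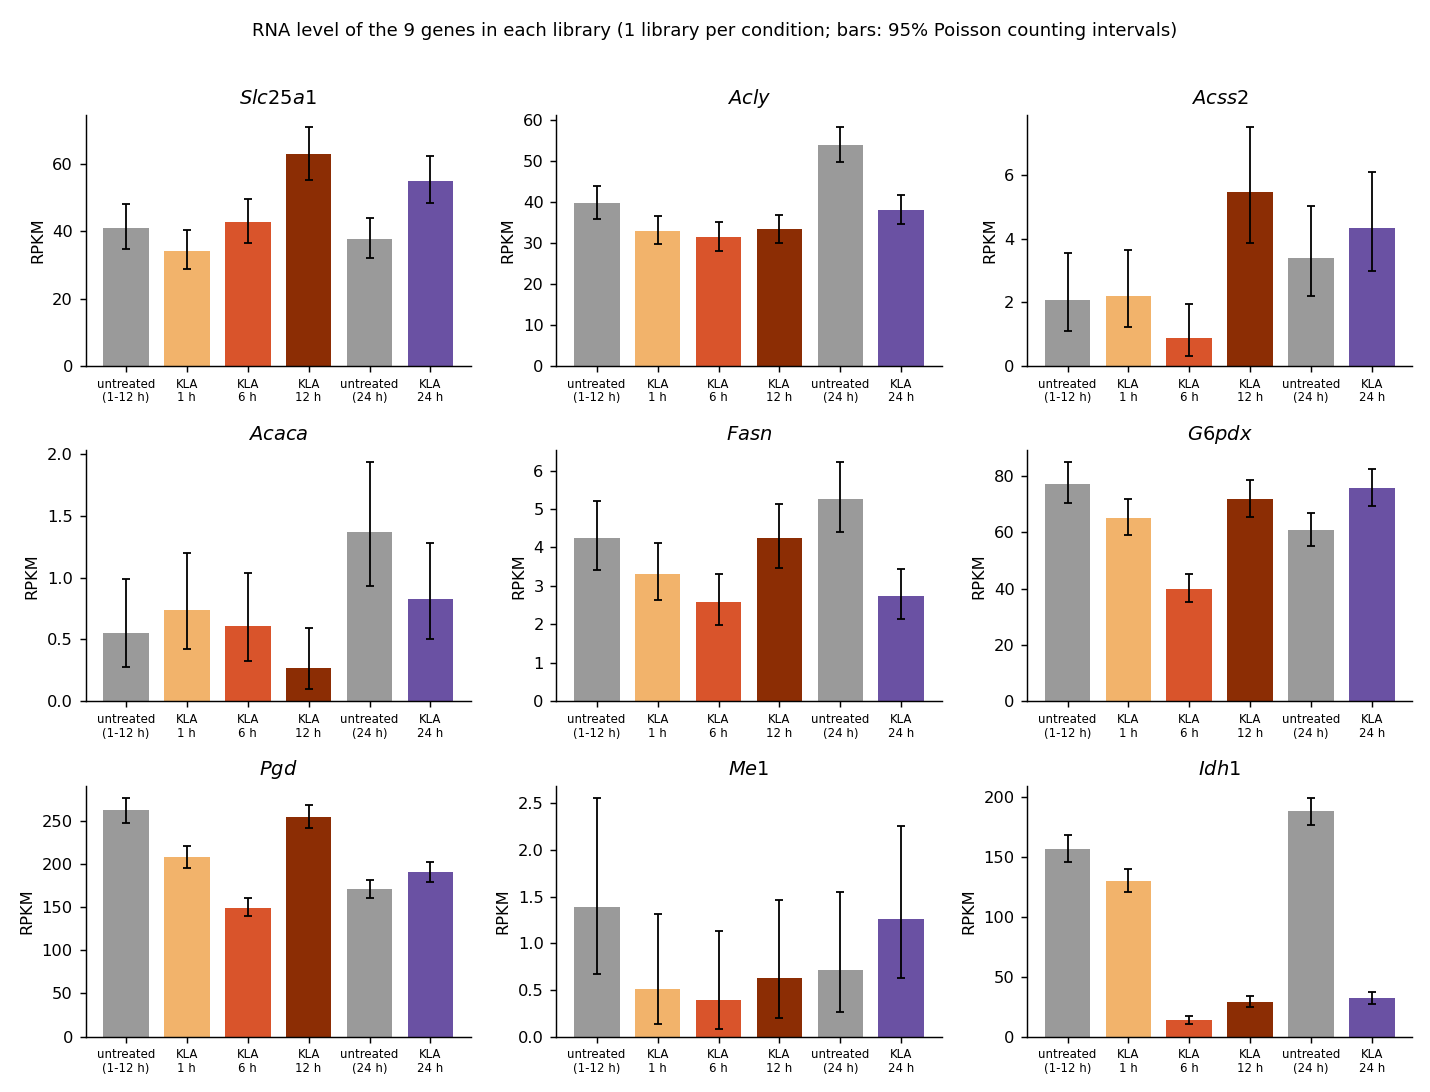
RNA level (RPKM, from 0) of the 9 genes in each of the 6 libraries, 1 library per bar, with 95% Poisson counting intervals on the reads. Idh1 stands at 156, 129 and 188 RPKM in the untreated and 1 h libraries and at 13.6, 28.9 and 31.9 RPKM after 6, 12 and 24 h of KLA, while the other 8 genes differ less or have wide intervals.

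Idh1, which encodes the NADP-dependent isocitrate dehydrogenase of the cytosol and peroxisomes, stood furthest from its control of the 9 genes at 6, 12 and 24 h. The chosen transcript, NM_010497, lies on the minus strand of chr1:65205190-65225716 (mm9). Its RNA stood at 156 RPKM (780 reads) in the untreated 1 to 12 h library, at 129 RPKM (703 reads) after 1 h of KLA, at 13.6 RPKM (73 reads) after 6 h and at 28.9 RPKM (160 reads) after 12 h. The untreated 24 h library held 188 RPKM (1098 reads) and the 24 h KLA library 31.9 RPKM (193 reads). The 3 libraries with 6 h or more of KLA were low, the other 3 were high, and no level of one set reached the other.

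At 6 h Idh1 was 11.5-fold lower than in its control (interval 9.04 to 14.8), at 12 h 5.41-fold lower (4.56 to 6.45) and at 24 h 5.88-fold lower (5.04 to 6.89). At 1 h the ratio was 0.828 (0.747 to 0.918), and after TMM rescaling it was 0.944 with an interval that included 1 (0.851 to 1.05). In these bulk libraries, fewer cells of a type and less RNA per cell cannot be told apart. At 6 h only 0.358% of the genes tested had a lower log2 ratio, at 12 h 1.46% and at 24 h 1.02%. The level at 12 h was 2.13 times that at 6 h (1.60 to 2.84), and the level at 24 h was 1.10 times that at 12 h (0.890 to 1.37), which counting error alone could give. Both untreated libraries differed by far less, with a ratio of 1.20 (1.09 to 1.32). With TMM rescaling the 3 ratios were 0.127, 0.243 and 0.186, each with an interval below 1.

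Summed levels of cell type markers also differed between these libraries. Those of the 8 macrophage markers were 11262 and 9237 RPKM in untreated cells, 10817 RPKM at 1 h and 7335, 7825 and 6534 RPKM at 6, 12 and 24 h. Lyz2 held most of this sum, at 8848 RPKM in the untreated 1 to 12 h library and 5118 RPKM at 6 h. The markers did not move together: at 6 h, 4 of the 8 had an interval below 1 and 4 above 1 (of all genes, 42.5% and 13.8%). The summed levels of 7 fibroblast and mesothelium markers were 121 and 114 RPKM untreated, 99.0, 99.4 and 97.9 RPKM after 1, 6 and 12 h and 182 RPKM after 24 h. The summed level of 7 neutrophil markers was 40.0 and 45.5 RPKM in untreated cells, 43.3 RPKM at 1 h and 51.7, 80.0 and 123 RPKM at 6, 12 and 24 h. S100a8, a gene that macrophages also express, alone held 38.3 to 118 RPKM, and Mpo was at 0 throughout. Camp, of the same list, was at 0 in untreated cells and at 1 and 6 h, and at 4.78 and 4.38 RPKM at 12 and 24 h. The summed level of 6 dendritic cell markers went from 1.29 and 1.88 RPKM untreated to between 6.95 and 9.49 RPKM at 6 to 24 h, of which Ccr7 held 6.21 to 8.90 RPKM. Lymphocyte markers summed to 11.9 and 13.3 RPKM untreated and to between 6.49 and 8.16 RPKM at 6 to 24 h, and mast cell and eosinophil markers to 5.26 and 8.02 RPKM against 0.713 to 2.88 RPKM. Of the latter sum Siglec5 held 5.09 and 7.23 RPKM untreated and 0.311 to 2.10 RPKM at 6 to 24 h. The part of these cell types in the Idh1 difference was not tested.

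Idh1 has an upstream start as well, that of NM_001111320, which lies 7337 bases before that of NM_010497 and shares its end. The 2 rows of the table carry nearly the same values, for example 13.3 and 13.6 RPKM at 6 h, so reads of the 2 transcripts cannot be told apart. A total of 6 peaks lay within 10 kb of the NM_010497 start. The SREBP1 peak with most tags, chr1:65233037-65233231 (mm9), had 102.1 normalised tags, a height that 0.157% of SREBP1 peaks exceeded. Its centre lay 81 bases upstream of the NM_001111320 start and 125 bases upstream of the start of Pikfyve, a lipid kinase gene that is read the other way from there. An LXR peak of 20 tags overlapped it. At the NM_010497 start an SREBP1 peak of 14.3 tags was centred 13 bases downstream, and 926 to 927 bases downstream an LXR peak of 226.6 tags overlapped an SREBP1 peak of 21.3 tags. A further LXR peak of 98.7 tags stood 1430 bases downstream. Pikfyve RNA was at 0.999 of its control at 6 h (0.746 to 1.34), at 0.640 at 12 h (0.459 to 0.886) and at 0.748 at 24 h (0.587 to 0.953), where Idh1 was at 0.087, 0.185 and 0.170.

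The 250 bases before each Idh1 start are given because the SREBP1 peaks at these starts cover part of them. Here and below, sequences are from RefSeq on GRCm38.p6, matched by transcript accession to the mm9 positions of the peaks, and run 5′ to 3′ on the strand of the gene. Capitals mark CCAAT, the box bound by NF-Y, and GGGCGG, the GC box bound by Sp1, on either strand. The upstream start is at chr1:65186480-65186729 and the NM_010497 start at chr1:65179143-65179392, minus strand. The upstream sequence holds 1 CCAAT box, 151 to 147 bases before the start, and 2 GC boxes, while the other holds 1 GC box.
Idh1, NM_001111320: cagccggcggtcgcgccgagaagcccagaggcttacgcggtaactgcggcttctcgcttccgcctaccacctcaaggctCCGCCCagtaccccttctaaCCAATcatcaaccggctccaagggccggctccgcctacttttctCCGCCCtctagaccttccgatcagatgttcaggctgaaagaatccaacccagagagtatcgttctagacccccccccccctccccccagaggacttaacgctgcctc
Idh1, NM_010497: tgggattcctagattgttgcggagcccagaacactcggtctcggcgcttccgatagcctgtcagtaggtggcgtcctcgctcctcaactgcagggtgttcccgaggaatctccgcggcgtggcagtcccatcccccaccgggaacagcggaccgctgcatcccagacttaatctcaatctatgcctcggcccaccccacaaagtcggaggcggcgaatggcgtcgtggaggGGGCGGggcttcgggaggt

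G6pdx and Pgd, the genes of the 2 NADPH-making dehydrogenases of the pentose phosphate pathway (glucose-6-phosphate and 6-phosphogluconate dehydrogenase), were lower than their control at 6 h, while at 12 h their intervals included 1. G6pdx (NM_008062, chrX:71654825-71674500, minus strand) stood at 77.3 RPKM untreated, then at 65.2, 40.0 and 71.9 RPKM after 1, 6 and 12 h, and at 60.7 and 75.8 RPKM in the untreated and KLA libraries of 24 h. The 6 h library was the lowest of the 6 and its nearest neighbour, the untreated 24 h library, lay 1.52 times higher (1.30 to 1.79). Ratios to the control were, in order of time, 0.843 (0.735 to 0.966), 0.517 (0.441 to 0.605), 0.929 (0.814 to 1.06) and 1.25 (1.09 to 1.42). The ratio at 24 h rests on the choice of control, since the untreated 24 h library was itself lower than the other (0.785, interval 0.685 to 0.900) and the ratio to that other library was 0.980. Against the untreated 24 h library G6pdx was at 0.658 (0.560 to 0.772) at 6 h and at 1.18 (1.03 to 1.36) at 12 h, and after TMM rescaling the 12 h ratio to its own control was 1.22 (1.07 to 1.40). G6pd2, a near-identical retrogene copy, is listed at 11.3 to 18.4 RPKM, so part of the G6pdx reads may be assigned to either gene. Ikbkg, which overlaps G6pdx on the opposite strand, was at 0.707 of its control at 6 h (0.558 to 0.893).

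Pgd (NM_001081274, chr4:148524094-148540816, minus strand) stood at 262, 208, 150 and 255 RPKM from the untreated library to 12 h of KLA, and at 171 and 190 RPKM in the untreated and KLA libraries of 24 h. It was the most abundant of the 9 genes in every library but the untreated 24 h one, where Idh1 exceeded it. Its ratios ran 0.792 (0.730 to 0.859), 0.571 (0.522 to 0.624), 0.971 (0.900 to 1.05) and 1.12 (1.02 to 1.22) over the same times. The 2 untreated libraries differed as widely, with a ratio of 0.651 (0.599 to 0.708), so that at 24 h Pgd was at 0.726 of the untreated 1 to 12 h library. Against the untreated 24 h library it was at 0.876 (0.797 to 0.963) at 6 h and at 1.49 (1.37 to 1.62) at 12 h, and after TMM rescaling the 12 h ratio to its own control was 1.28 (1.18 to 1.38). Between 6 and 12 h of KLA, a comparison that needs no untreated library, Pgd was 1.70-fold (1.56 to 1.86) and G6pdx 1.80-fold (1.54 to 2.11) higher at the later time.

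At the Pgd start an SREBP1 peak of 54.1 tags was centred 87 bases upstream, and 0.472% of SREBP1 peaks were higher. No LXR peak overlapped it. Of 2 SREBP1 peaks further upstream, the one of 20.5 tags 7179 bases before the start lay under an LXR peak of 137.3 tags. G6pdx had an SREBP1 peak of 10.7 tags 962 bases downstream of its start, close to the list's median of 11.1 tags. Its 2 LXR peaks, of 77.3 and 58.7 tags, lay nearer to a start of Ikbkg than to its own. The 250 bases before the Pgd start (GRCm38.p6, chr4:149166706-149166955, minus strand), which the 54.1-tag peak covers in part, hold 2 CCAAT boxes and 1 GC box.
Pgd, NM_001081274: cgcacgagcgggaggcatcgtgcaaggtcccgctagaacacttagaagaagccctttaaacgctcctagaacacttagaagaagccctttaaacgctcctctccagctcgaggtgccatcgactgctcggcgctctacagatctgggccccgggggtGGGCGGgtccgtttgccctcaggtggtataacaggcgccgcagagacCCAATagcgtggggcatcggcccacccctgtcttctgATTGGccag

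Me1, the gene of the cytosolic malic enzyme (NM_008615, chr9:86474970-86589947, minus strand), was barely expressed. It stood at 1.39 RPKM (10 reads) untreated and at 0.512, 0.388 and 0.628 RPKM (4, 3 and 5 reads) after 1, 6 and 12 h of KLA. The untreated 24 h library held 0.712 RPKM (6 reads) and the 24 h KLA library 1.26 RPKM (11 reads). Every interval on its ratio included 1, and at 6 h the ratio of 0.279 had bounds of 0.0493 and 1.08, so a difference was not detectable at this depth. No SREBP1 or LXR peak lay within 10 kb of its start.

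Slc25a1, the mitochondrial citrate carrier, was higher than its control at 12 and 24 h. The gene (NM_153150) lies at chr16:17925304-17928312 on the minus strand. Its level was 41.1 RPKM untreated, 34.3, 42.7 and 62.9 RPKM after 1, 6 and 12 h, 37.8 RPKM in the untreated 24 h library and 55.1 RPKM after 24 h of KLA. The 12 and 24 h KLA libraries were the 2 highest and did not differ from each other beyond counting error (1.14, interval 0.955 to 1.36). From 1 to 24 h the ratios were 0.834 (0.658 to 1.06), 1.04 (0.830 to 1.30), 1.53 (1.25 to 1.88) and 1.46 (1.19 to 1.79). After TMM rescaling the ratio at 6 h was 1.52 with an interval above 1 (1.21 to 1.90). With Idh1 and G6pdx low, Slc25a1 was the second most abundant of the 9 genes at 6 h. It had been the fourth in untreated cells of the 1 to 12 h series. Its counting interval at 6 h (36.5 to 49.6 RPKM) overlapped that of G6pdx (35.1 to 45.3 RPKM), so their order is within counting error.

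Acly, the gene of ATP citrate lyase (NM_134037, chr11:100337666-100389314, minus strand), was lower than its own control at each time as deposited, by less than 1.5-fold. It stood at 39.6 RPKM untreated, at 33.0, 31.4 and 33.3 RPKM after 1, 6 and 12 h of KLA, at 53.8 RPKM in the untreated 24 h library and at 37.9 RPKM after 24 h. Every KLA library was below both untreated libraries. The ratios were 0.833 (0.718 to 0.965), 0.794 (0.683 to 0.922), 0.840 (0.725 to 0.973) and 0.705 (0.623 to 0.798) in order of time. After TMM rescaling the ratio at 1 h was 0.949 with an interval that included 1 (0.819 to 1.10), and against the untreated 1 to 12 h library the ratio at 24 h was 0.958 (0.834 to 1.10). At 6 and 12 h the direction turned with the scaling, to 1.16 and 1.11 after TMM rescaling, with intervals that included 1. The untreated libraries themselves differed by 1.36-fold (1.19 to 1.55).

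Acss2, the cytosolic acetyl-CoA synthetase that makes acetyl-CoA from acetate (NM_019811, chr2:155343779-155388479, plus strand), was low at 6 h and highest at 12 h. Its levels were 2.08, 2.21, 0.893 and 5.48 RPKM from the untreated library to 12 h of KLA, on 13, 15, 6 and 38 reads. The 24 h libraries held 3.41 RPKM untreated and 4.36 RPKM with KLA, on 25 and 33 reads. At 12 h it was 2.63-fold higher than its control (1.37 to 5.39), and at 6 h the ratio of 0.429 had an interval that included 1 (0.134 to 1.21). Against the untreated 24 h library the 12 h ratio was 1.61 with an interval that included 1 (0.945 to 2.78). From 6 to 12 h of KLA it was 6.14-fold higher (2.58 to 17.8), and 99.3% of the genes tested had a lower log2 ratio between these times. That comparison was picked after its values were seen.

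Slc25a1 and Acly each had an SREBP1 peak at the start. The Acly peak, of 40.6 tags and centred 51 bases upstream, was exceeded by 0.729% of SREBP1 peaks and overlapped an LXR peak of 14.7 tags. The Slc25a1 peak, of 12.7 tags and centred 3 bases downstream, had no LXR peak over it. Acss2 had no SREBP1 peak, and its 2 LXR peaks, of 30.7 and 17.3 tags, were centred 411 bases upstream and 1 base downstream of its start. The promoters of Acly (GRCm38.p6, chr11:100528001-100528250, minus strand) and Slc25a1 (chr16:17928220-17928469, minus strand) are given for their peaks. Each holds 4 GC boxes, and that of Slc25a1 also has 1 CCAAT box and 1 CACGTG, the E-box, at 239 to 234 bases before the start.
Acly, NM_134037: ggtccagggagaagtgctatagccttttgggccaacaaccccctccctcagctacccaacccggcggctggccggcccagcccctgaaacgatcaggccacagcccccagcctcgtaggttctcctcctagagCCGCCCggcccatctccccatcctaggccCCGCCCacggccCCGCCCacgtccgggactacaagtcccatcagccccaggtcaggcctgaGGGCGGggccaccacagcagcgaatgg
Slc25a1, NM_153150: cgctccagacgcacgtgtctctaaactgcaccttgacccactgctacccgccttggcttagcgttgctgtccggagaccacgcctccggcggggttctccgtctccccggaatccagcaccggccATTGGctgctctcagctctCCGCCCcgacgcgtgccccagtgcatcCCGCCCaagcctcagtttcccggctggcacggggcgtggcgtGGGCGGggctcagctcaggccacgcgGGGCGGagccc

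Fasn, the gene of fatty acid synthase, was lower than its control at 6 and 24 h and level with it at 12 h. Its transcript NM_007988 lies at chr11:120667272-120685861 on the minus strand. The levels were 4.24, 3.31, 2.59 and 4.24 RPKM from the untreated library to 12 h of KLA, on 93, 79, 61 and 103 reads, and 5.25 and 2.75 RPKM in the untreated and KLA libraries of 24 h, on 135 and 73 reads. The 6 and 24 h KLA libraries were the lowest and did not differ beyond counting error. In order of time the ratios were 0.781 (0.571 to 1.06), 0.610 (0.434 to 0.851), 0.998 (0.747 to 1.34) and 0.523 (0.388 to 0.700). After TMM rescaling the ratio at 6 h was 0.890 with an interval that included 1 (0.634 to 1.24).

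Acaca, the gene of acetyl-CoA carboxylase 1 (NM_133360, chr11:84008940-84215153, plus strand), had 6 to 32 reads over its 9031 bases. It stood at 0.552, 0.738, 0.607 and 0.271 RPKM from the untreated library to 12 h, at 1.37 RPKM in the untreated 24 h library and at 0.828 RPKM after 24 h of KLA. All 4 intervals on its ratio to the control included 1. The 2 untreated libraries differed more than any KLA library from its control, with a ratio of 2.48 (1.22 to 5.45). Acacb, the carboxylase isoform of the mitochondrial surface, had at most 5 reads in a library.

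Fasn carried the LXR peak with most tags of the 21, at 433.3 tags and centred 217 bases upstream of the start, a height that 0.467% of LXR peaks exceeded. An SREBP1 peak of 34.8 tags, exceeded by 1.03% of SREBP1 peaks, lay 462 bases downstream and did not overlap it. Within 10 kb of the NM_133360 start, Acaca had no SREBP1 peak and 2 LXR peaks, of 22.7 and 16 tags, both below the list's median of 28 tags. This is the only Acaca start in the RNA data, and any other start of the gene was not searched. The 250 bases before the Fasn start (GRCm38.p6, chr11:120824548-120824797, minus strand) are given for the LXR peak. They hold 3 CCAAT boxes, 2 of which overlap on opposite strands 62 to 55 bases before the start, and no GC box.
Fasn, NM_007988: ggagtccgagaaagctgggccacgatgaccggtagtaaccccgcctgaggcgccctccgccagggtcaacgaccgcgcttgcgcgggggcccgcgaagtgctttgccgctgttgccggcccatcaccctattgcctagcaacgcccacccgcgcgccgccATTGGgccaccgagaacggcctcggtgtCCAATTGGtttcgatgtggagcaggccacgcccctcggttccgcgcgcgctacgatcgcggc

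**Figure D2:**
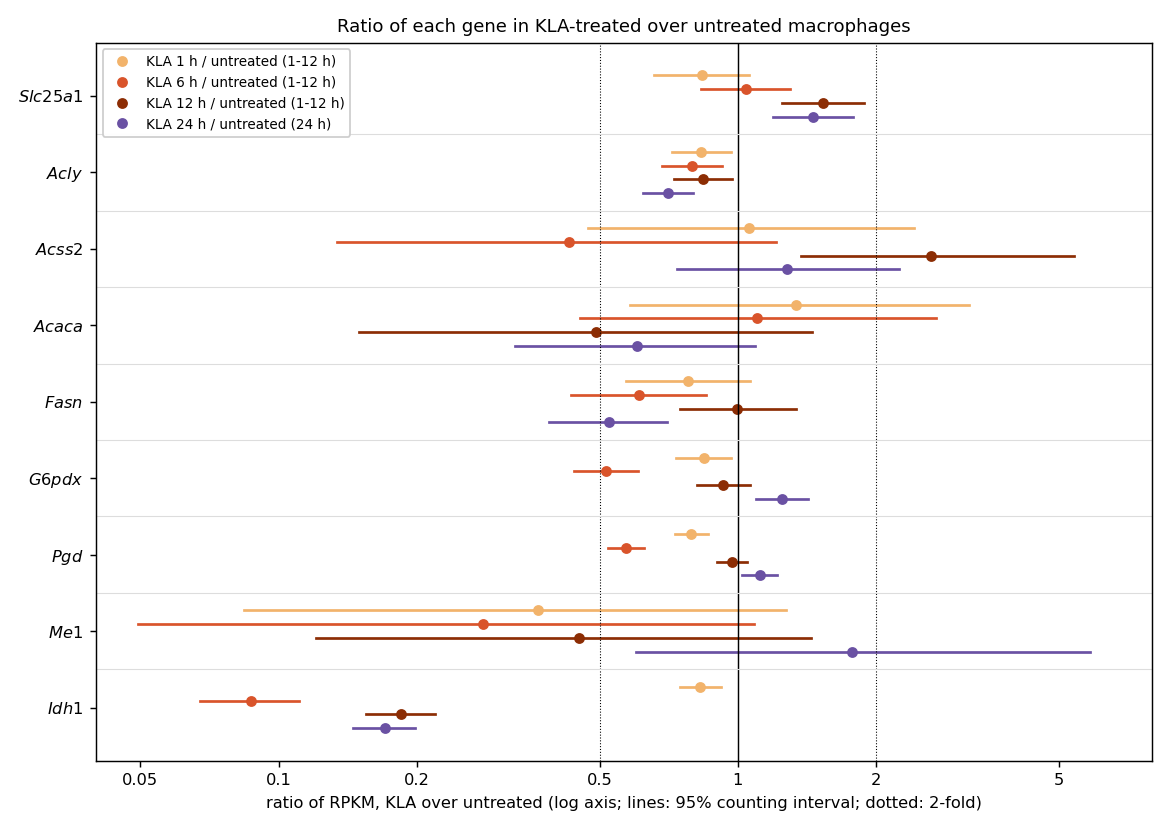
Ratio of RPKM (log axis) of each gene in KLA-treated over untreated macrophages at 4 times, 1 library a side, with 95% exact counting intervals. Idh1 lies at 0.087, 0.185 and 0.170 at 6, 12 and 24 h, left of the other 8 genes at each of these times, and Slc25a1 lies above 1 at 12 and 24 h.

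Counted over the 9 genes, those at least 2-fold lower on the log2(RPKM + 1) scale numbered 0 after 1 h and 1 at each later time, Idh1. Of all genes tested, 4.09%, 22.4%, 16.3% and 10.6% were called lower by this rule. Acss2 at 12 h was the only one at least 2-fold higher, a call that 3.65%, 9.35%, 8.88% and 9.98% of all genes had at the 4 times. Genes with a counting interval below 1 numbered 4, 5, 2 and 3 of 9 in order of time, where the share of all genes was 19.2%, 42.5%, 35.8% and 26.6%. Those with an interval above 1 numbered 0, 0, 2 and 3, where the share of all genes was 6.76%, 13.8%, 14% and 19.3%. At 6 h the count of 5 of 9 is near the background, as are the 2-fold counts. Interval calls come more readily for genes of many reads, which the shares of all genes do not allow for.

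Scaling moved this split. At 6 h the 9 genes divided into 5 below and 0 above as deposited and into 3 below (G6pdx, Pgd and Idh1) and 1 above (Slc25a1) after TMM rescaling. At 12 h they divided into 2 and 2 as deposited and into 1 below (Idh1) and 4 above (Slc25a1, Acss2, G6pdx and Pgd) after it. The shares of all genes, which the same rescaling shifts too, were not counted after it. In order of time, the median log2 ratio of the 9 genes was −0.26, −0.70, −0.10 and 0.16, against −0.16, −0.46, −0.32 and −0.09 over all genes. The genes did not move as one: at 12 h Idh1 was at 0.185 of its control while Slc25a1 and Acss2 were at 1.53 and 2.63.

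**Figure D3:**
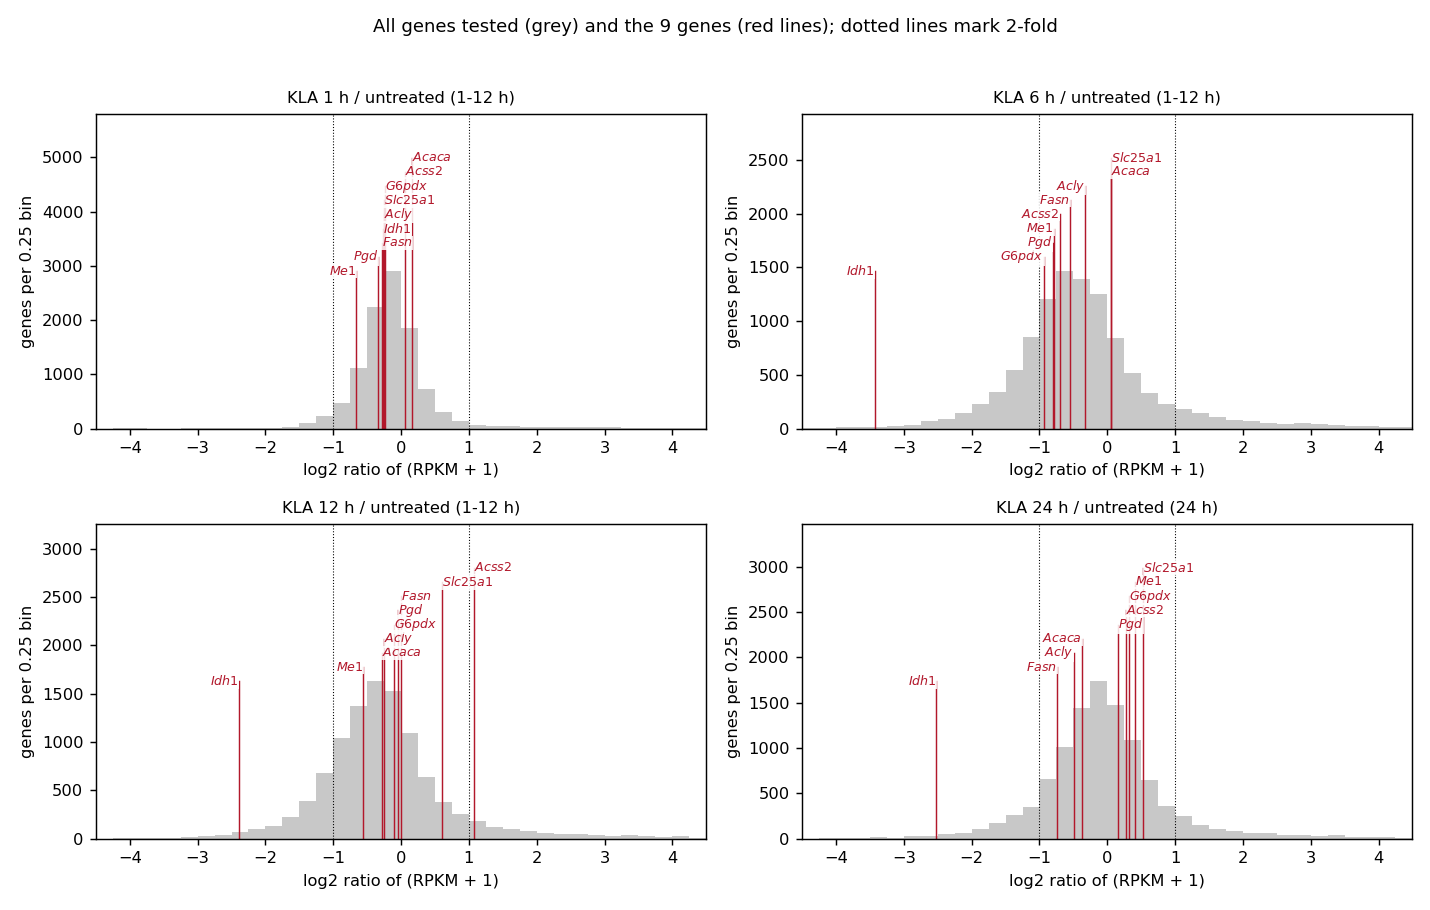
Log2 ratio of RPKM + 1 for the 10605 genes tested (grey, genes per bin) at each time of KLA, with the 9 genes as red lines and 2-fold as dotted lines. Idh1 lies in the lower tail at 6, 12 and 24 h, where 0.358%, 1.46% and 1.02% of genes are lower. The others lie within the body of the distribution, the furthest up being Acss2 at 12 h, where 91.7% of genes are lower.

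Between 6 and 12 h of KLA, 6 of the 9 genes were higher beyond counting error (Slc25a1, Acss2, Fasn, G6pdx, Pgd and Idh1) and none was lower, where 18.4% of all genes were higher and 11.5% lower. This comparison was added after the values had been seen, rests on 1 library a side and shares the 6 h library with the ratios above. Its interval calls come more readily for genes of many reads. By mean level Pgd, Idh1, G6pdx and Slc25a1 ranked 290, 669, 938 and 1377 of 10605 genes, and Fasn and Acss2 7421 and 7938. The middle gene of all those tested also had a log2 ratio of 0.11 between 6 and 12 h. Between the 2 untreated libraries, 3 genes were higher (Acly, Acaca and Idh1) and 2 lower (G6pdx and Pgd) in that of 24 h, where 16.4% and 12.4% of all genes were. None of the 9 was 2-fold lower or higher there, calls that 2.42% and 1.72% of all genes had. Pgd at 0.651 and Acly at 1.36 of the earlier control thus differed without KLA by as much as in some KLA comparisons.

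The summed level of the 4 NADPH genes was 497 RPKM untreated, 403 RPKM at 1 h, 204 RPKM at 6 h and 356 RPKM at 12 h, and 420 against 299 RPKM in the 24 h pair. That of the 3 acetyl-CoA genes was 82.8, 69.5, 75.1 and 102 RPKM, and 95.0 against 97.4 RPKM at 24 h. Idh1 made up 26.7% of the summed level of all 9 genes in the untreated 1 to 12 h library, 4.83% at 6 h, 6.25% at 12 h, 36.0% in the untreated 24 h library and 7.97% at 24 h of KLA. Pgd and G6pdx together held the larger part of the NADPH genes' RNA in every library.

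Other genes of NADPH supply and the pentose phosphate pathway were counted from a list of 17, of which 16 were tested. At least 2-fold lower were 0, 6, 4 and 1 in order of time. At each of 6, 12 and 24 h 1 was 2-fold higher (of all genes, 9.35%, 8.88% and 9.98%). Counts and ratios of this list and of those below are as deposited. TMM rescaling would move log2 ratios at 6 h up by 0.55, so calls of lower genes close to 2-fold would be lost. Neither the lists nor the shares of all genes were counted after it. The shares of all genes that were lower, for this and the lists below, were 4.09%, 22.4%, 16.3% and 10.6%, so the counts of this list at 12 and 24 h are near or under the background. Taldo1, the transaldolase of the pathway's carbon-shuffling arm, stood at 195 RPKM against 511 RPKM in its control at 6 h (ratio 0.382, interval 0.346 to 0.421) and 187 RPKM at 12 h. Pgls, the lactonase between G6pdx and Pgd, was at 0.414 (0.315 to 0.540) at 6 h. Idh2, the mitochondrial counterpart of Idh1, stood at 22.4 RPKM untreated, 8.68 RPKM at 6 h and 6.97 RPKM at 12 h, a ratio of 0.387 (0.253 to 0.581) and then 0.311 (0.197 to 0.480). Nadk2, the mitochondrial NAD kinase, was at 0.248 (0.0982 to 0.553) at 6 h. Nnt, the gene of the mitochondrial transhydrogenase, was at 0.456 (0.311 to 0.659) at 12 h and 0.413 (0.298 to 0.565) at 24 h. It is listed here as a non-coding transcript, so no enzyme level can be read from it. Mthfd2, the mitochondrial enzyme of folate metabolism, went the other way, from 8.33 to 35.6 RPKM at 6 h (4.28, interval 3.00 to 6.25), and was 4.84-fold higher at 24 h (3.64 to 6.53).

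Of 18 other acetyl-CoA and citrate genes tested, 1, 8, 4 and 3 were at least 2-fold lower at 1, 6, 12 and 24 h, and none was 2-fold higher. Against the same shares of all genes, 4.09%, 22.4%, 16.3% and 10.6%, the counts at 1 and 12 h are near the background. Crat, carnitine acetyltransferase, went from 23.4 to 5.28 RPKM at 6 h (0.225, interval 0.165 to 0.303). Pdp1, the phosphatase that activates pyruvate dehydrogenase, was at 0.287 (0.208 to 0.391) by 1 h and at 0.327 (0.241 to 0.440) at 6 h, while Pdk2, a kinase that inhibits the same complex, went from 26 reads to 2 at 6 h (0.0715, interval 0.00822 to 0.286). Aco1, the cytosolic aconitase, which makes the isocitrate that the Idh1 enzyme uses, was at 0.366 (0.282 to 0.471), and the pyruvate carrier gene Mpc2 at 0.418 (0.280 to 0.613), both at 6 h. Of 9 other malonyl-CoA and fatty acid synthesis genes tested, 1, 3, 2 and 1 were at least 2-fold lower, with those at 12 and 24 h near the shares of 16.3% and 10.6% of all genes. Mlycd, malonyl-CoA decarboxylase, was at 0.340 (0.190 to 0.584), Mid1ip1, which promotes acetyl-CoA carboxylase assembly, at 0.416 (0.316 to 0.543), and Prkaa1, a catalytic subunit of AMPK, at 0.432 (0.306 to 0.604), all at 6 h.

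Beside these, 3 of 13 desaturases and elongases and 1 of 19 mevalonate arm enzymes tested were at least 2-fold lower at 6 h (of all genes, 22.4%), and 1 and 5 at 24 h (10.6%). Of the mevalonate arm enzymes, 10 of 19 were higher beyond counting error in the untreated 24 h library than in the other untreated one (of all genes, 16.4%), with a median log2 ratio of 0.37. At 24 h of KLA the medians were −0.24 for the desaturases and elongases and −0.72 for the mevalonate arm enzymes, against 0.16 for the 9 genes. Whether these differences between lists exceed what replicates would give could not be tested. The plot of the lists shows each of their genes.

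**Figure D4:**
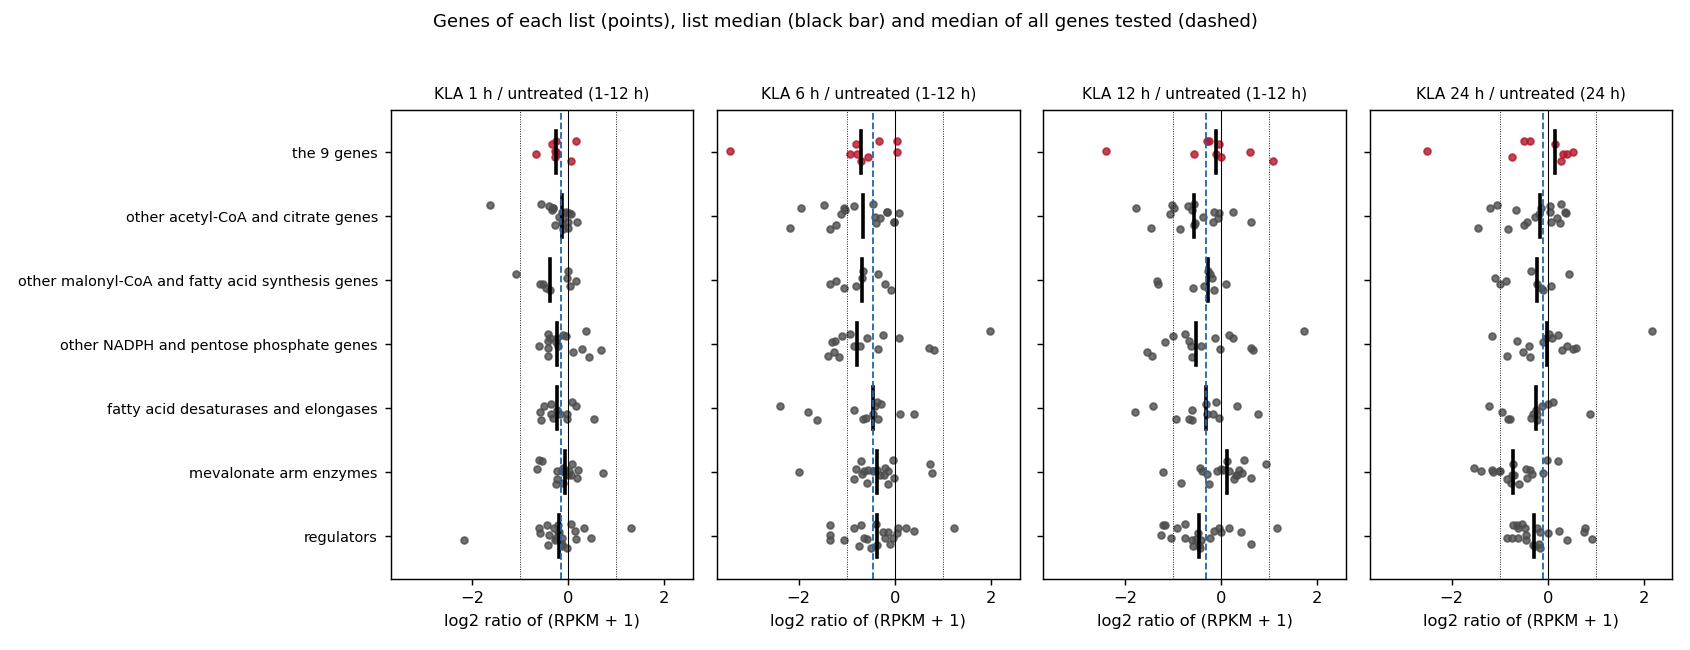
Log2 ratio of RPKM + 1 (x axis) of the 9 genes (red) and of the tested genes of 6 lists (grey points) at 4 times of KLA, with each list's median as a black bar and the median of all genes as a dashed line. At 6 h Idh1, at −3.43, lies further left than any point of the other lists.

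The regulators of these genes were expressed, apart from Mlxipl, the gene of the glucose-sensing factor ChREBP, which had at most 2 reads. Srebf1 stood at 13.9, 15.5, 18.7 and 12.5 RPKM from the untreated library to 12 h and at 8.90 and 10.6 RPKM in the 24 h pair. At 6 h it was higher than its control beyond counting error (1.34, interval 1.07 to 1.69), and at the other times the interval included 1. The untreated libraries differed here (0.639, interval 0.487 to 0.836), and against the untreated 24 h library the ratios after 1, 6 and 12 h were 1.74 (1.35 to 2.26), 2.10 (1.64 to 2.71) and 1.40 (1.07 to 1.84). Against the untreated 1 to 12 h library Srebf1 at 24 h was at 0.762 (0.591 to 0.982). Srebf2, whose product drives mainly cholesterol synthesis genes, was at 1.26 of its control at 1 h (1.08 to 1.47) and at 0.642 at 24 h (0.544 to 0.757). Scap, which escorts SREBP to the Golgi, was at 0.429 at 12 h (0.285 to 0.635) and at 0.554 at 24 h (0.385 to 0.791). Nr1h3, which encodes LXRα, was 1.55-fold higher at 12 h (1.22 to 1.97). For Nr1h2, which encodes LXRβ, the interval against its own control included 1 at all 4 times as deposited. At 24 h it lay below 1 against the untreated 1 to 12 h library (0.768, interval 0.623 to 0.947). All regulator ratios here are as deposited. TMM rescaling would move log2 ratios up by 0.55 at 6 h and 0.40 at 12 h, so intervals that include 1 may lie above 1 after it. Of the wider list of 22 regulators tested, 1, 4, 4 and 0 were at least 2-fold lower in order of time (of all genes, 4.09%, 22.4%, 16.3% and 10.6%). At least 2-fold higher were 1, 1, 1 and 0 (3.65%, 9.35%, 8.88% and 9.98%). These counts are near or under the background. At 1 h Usf1 was at 0.172 and Insig1 at 2.51 of the control. At 6 h Usf1, Usf2, Rxra and Rxrb were at 0.450, 0.374, 0.359 and 0.347, and Keap1 at 2.42. At 12 h Usf2, Rxrb and Mbtps2 were at 0.413, 0.377 and 0.390, and Keap1 at 2.30. Usf1 stood at 15.9 RPKM in the untreated 1 to 12 h library and at 6.80 RPKM in that of 24 h.

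Within 10 kb of their starts, 6 of the 9 genes had an SREBP1 peak, 8 an LXR peak and 6 both. Of all genes tested, 59.2% had an SREBP1 peak, 75.5% an LXR peak and 49% both, so these shares are near the background and say nothing particular of the 9 genes. Within 1 kb, 6 had an SREBP1 peak (of all genes, 41.2%), 7 an LXR peak (52.2%) and 5 both (25.6%). An SREBP1 peak overlapped by LXR was found at 4 of them (Slc25a1, Acly, Pgd and Idh1), against 19.3% of all genes, and at 2 within 1 kb (Acly and Idh1), against 11.3%. Of the 11 SREBP1 peaks 7 lay within 1 kb of the start of a chosen transcript. This leaves out the peak of 102.1 tags, which lay 81 bases from the other Idh1 start. Of the same 11 peaks 5 were overlapped by an LXR peak, where 27.2% of all SREBP1 peaks were overlapped.

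The letters of some binding motifs were looked for on both strands of the 12 RefSeq windows of 300 bases (250 before to 50 after a start) that matched the 9 genes. TCACNCCAC, a form of the sterol regulatory element, was in 0 of 12 windows and in 1.24% of all 32851 windows. TCACGTGA, the E-box form of that element, was in 0 (of all, 0.974%), and the shorter E-box CACGTG, which it contains, in 1, that of Slc25a1 (7.15%). CCAAT was in 7 (37.4%) and GGGCGG in 8 (35.7%). The DR4 repeat bound by LXR, which is 2 copies of AGGTCA spaced by 4 bases, and its looser form of 2 copies of GGTCA with the same spacing, were each in 0 (0.0152% and 0.0457%). A missing match says only that these letters are not in the window, and the LXR peak at Fasn lies only partly inside such a window.

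For the 5 genes whose levels differed at least 2-fold between libraries, the genes of most similar profile over the 6 libraries were looked up among 2820 genes with a mean of at least 10 RPKM and a 2-fold range. The measure was Pearson's r of log2(RPKM + 1), given as a description. For Idh1 they were Lta4h, the gene of leukotriene A4 hydrolase (r = 0.998), Fam105a (0.998) and Gprc5b (0.997). Lta4h stood at 62.1, 56.5, 14.3 and 21.6 RPKM from the untreated library to 12 h and at 63.4 and 23.5 RPKM in the 24 h pair. For Fasn they were Tmem176a (0.926), Aacs (0.912), the gene of acetoacetyl-CoA synthetase, and 9430038I01Rik (0.894). Those of Acss2, Acaca and Me1 (Hspd1, Ddx6 and Coa6 first, at 0.988, 0.992 and 0.969) rest on few reads of these 3 genes.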

How the data were processed

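The members and gene lists were chosen with earlier results of these data known. The authors deposited RNA levels as RPKM for 33022 transcripts (build mm9). The submitters' processing notes name Bowtie 0.12.7, STAR, HOMER and mm9, without saying which file each made. No source used here says whether counting used strand, and reads of overlapping genes cannot be told apart. Of the 103 samples in the labels, 8 were analysed here.

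Reads were recovered as RPKM × length × library total, and 99.8% to 99.9% of the values above 0 in a library came out whole within 0.01 read. Each ratio of RPKM has a 95% exact conditional binomial (Clopper-Pearson) interval, tested on simulated data. Calls of 2-fold use log2(RPKM + 1), which understates changes of low genes, over 10605 genes with at least 1 RPKM in 2 libraries. Conditions with 1 library a side allow no test and no p-value. KLA at 1, 6 and 12 h was set against 1 untreated library and KLA at 24 h against the other, and each KLA comparison of 1 to 12 h shares its control. The comparisons among KLA libraries were added after the values had been seen. Genes named from the lists of other enzymes and regulators are at least 2-fold from their control with an interval that excludes 1. They are at most 5 a list and comparison, plus 7 fixed regulators and isoforms. Not every gene that met this rule is named. Cell type markers, neighbours and copies of the 9 genes and genes of similar profile were named outside it. Alternatives were the other untreated library, pseudocounts of 0.1 and 3 RPKM, other filters, TMM and median-of-ratios scaling, the longest transcript, and other peak distances and scores. Python 3.11.15, numpy 2.4.6, scipy 1.17.1 and pandas 2.3.3 were used.

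Per the file headers, HOMER called the peaks at a false discovery rate of 0.001 and 4-fold over input. A peak's normalised tag count is a signal that the authors set to 10000000 tags a library, from 24395376 (SREBP1) and 7501248 (LXR) tags. The fold over input is a ratio and the peak score a score of the authors' caller, used only to rank or filter within a list. Peaks were counted by their centre and called shared where they overlap by at least 1 base. Each factor has 1 list and no replicate. The LXR sample is titled as GW3965-treated while its treatment label reads as a control, and per the file headers its tags are from 5 h of GW3965 with input from KLA-treated cells. The SREBP1 label gives 18 h and its header names a combined tag set. Samples were used under their titles.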

Additional observations from a re-analysis of the deposited data

Results flagged for a closer look

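G6pdx was below its control beyond counting error at 1 h and at 6 h of KLA (0.843 and 0.517) and above it at 24 h (1.25), with a difference of 0.56 between the log2 ratios at 1 and 24 h and of 1.25 between those at 6 and 24 h. Pgd did the same, at 0.792, 0.571 and 1.12, with differences of 0.49 and 0.96. Each condition has 1 library, so these differences were not tested. The control also differed between the times, and against the untreated 1 to 12 h library the 24 h ratios were 0.980 for G6pdx and 0.726 for Pgd.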

How the results depend on the processing

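The low Idh1 level at 6, 12 and 24 h kept its direction, its 2-fold call and its interval below 1 under every alternative run. With 1 library a condition, no replicate could be left out. Under TMM scaling the number of genes with an interval below 1 was 1, 3 and 1 at 1, 6 and 12 h and the number above 1 was 1 at 6 h and 4 at 12 h, all as with median-of-ratios scaling. The median log2 ratio of the 9 genes became −0.26 (TMM) and −0.27 (median-of-ratios) at 6 h and turned to 0.29 and 0.28 at 12 h. Acly turned to 1.16 and 1.15 at 6 h and to 1.11 and 1.10 at 12 h. Rescaling shifts all genes of a library alike. With the other untreated library as control, G6pdx and Pgd turned to 1.07 and 1.22 at 1 h and to 0.980 and 0.726 at 24 h, the median at 24 h turned to −0.061, 1 gene was above 1 at 1 h, 2 were 2-fold lower at 6 h and 0 were 2-fold higher at 12 h. With a pseudocount of 0.1 RPKM, 1, 3 and 2 genes were 2-fold lower at 1, 6 and 12 h, and 1 was 2-fold higher between the untreated libraries. With 3 RPKM, 0 were 2-fold higher at 12 h and the median at 6 h was −0.37. With a filter of 5 RPKM, 0 were 2-fold higher and 1 above 1 at 12 h.

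Among peaks at or above their list's median score, 5 genes had an LXR peak (of all genes, 48.7%), 3 both factors (26.3%) and 2 a shared peak (8.68%). The LXR count of 5 of 9 is near the background. Shared peaks were found at 2 genes within 1 kb (of all genes, 11.3%), within 5 kb (15.7%), or with centres within 50 bases (6.44%). Within 50 kb, 8 genes had an SREBP1 peak (of all genes, 82.4%). Low reads limit Me1, Acaca and Acss2. No paired analysis was possible because each condition has 1 library.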
